A study of Mus musculus with 18 samples.

Results

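The genes described here are *Trp53*, which encodes p53, with its inhibitor *Mdm2*, the p53 targets *Cdkn1a*, *Ccng1*, *Bbc3* and *Sesn2*, and the CDK inhibitors *Cdkn1b*, *Cdkn2a*, *Cdkn2b* and *Cdkn2c* (*Cdkn1a* belongs to both groups). They were chosen by name, as the rows of both deposited count tables whose Entrez identifier carries one of these symbols. All 10 were found among the 24100 genes of each table. RNA was measured in C3H/10T1/2 cells, an established mouse mesenchymal progenitor line (MPC), in 9 polyA-selected and 9 rRNA-depleted libraries. The WT line was generated with the Cas9 vector without a guide. The sg5 group is clone G7 and the sg6 group clone B10, each an *Atrx* knockout (KO) made with Cas9 and the guide of that name. Every group is a single line with 3 libraries of each kind, so n = 3 counts libraries of 1 line, and whatever else differs between the lines cannot be told apart from the loss of *Atrx*. The WT libraries are shared by the comparisons of both clones. The labels do not say whether the 3 libraries of a line came from separate cultures, so p-values measure only the spread between these libraries, which may be technical. In bulk RNA, fewer cells that express a gene and less RNA per cell cannot be told apart.

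Levels are given as CPM, the count of a gene per 1000000 counts of the library's TMM-scaled total. Differences are log2 fold changes with their standard error (SE) and the Benjamini-Hochberg adjusted p of edgeR's quasi-likelihood test, fitted across all features of a library kind. A gene passed the stricter threshold with a log2 fold change beyond 1 and an adjusted p below 0.05, and the p threshold with an adjusted p below 0.05 alone. "Rose" and "fell" are used for genes past the p threshold. The sg5 libraries were the deepest of the polyA libraries (161036799 to 235346363 counts), ahead of WT (27544833 to 80772108) and sg6 (58918732 to 71896907), and rRNA-depleted libraries held 20135336 to 33187136 counts.

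p53 is a transcription factor that is kept low in unstressed cells, mainly because MDM2, a ubiquitin ligase and itself a p53 target, marks it for degradation. DNA damage and other stresses stabilise the protein, so p53 activity is set largely after transcription and the amount of *Trp53* RNA need not follow it. Active p53 binds a pair of like half-sites in DNA and switches on genes that halt the cell cycle (*Cdkn1a*, encoding p21), drive apoptosis (*Bbc3*, encoding PUMA), restrain growth signalling (*Sesn2*) or feed back on p53 (*Mdm2*, *Ccng1*). The CDK inhibitors of the CIP/KIP family (*Cdkn1a*, *Cdkn1b*) bind cyclin-CDK complexes broadly. The INK4 family (*Cdkn2a*, *Cdkn2b*, *Cdkn2c*, *Cdkn2d*) inhibits CDK4 and CDK6 and so keeps the retinoblastoma protein active. *Cdkn2a* also encodes ARF, which binds and restrains MDM2. Cultured mouse fibroblast-like lines are known to escape senescence by losing either p53 function or the *Cdkn2a* products.

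The promoters of *Cdkn1a* and *Ccng1* are shown first because a p53 site was matched in them. In polyA RNA these genes also had the largest changes with an adjusted p below 0.05 among the genes listed. With rRNA depletion *Ccng1* passed the p threshold in neither clone. The p53 site was searched on both strands as a pair of half-sites of 10 bases each (the p53 consensus half-site, which reads the same on both strands), with at most 1 mismatch in both together. RefSeq promoter windows of 300 bases around annotated starts (GRCm38.p6) were scanned, and all 10 genes had a window, 15 windows in all. With no spacer between the half-sites, a match was found in *Cdkn1a* and *Ccng1* and in 0.0883% of all 32851 windows. With a spacer of up to 13 bases the same 2 genes held a match, as did 1.09% of all windows. The matched site is in capitals, with the sequence on either side in lower case, 5′ to 3′ on the gene's strand.
Cdkn1a: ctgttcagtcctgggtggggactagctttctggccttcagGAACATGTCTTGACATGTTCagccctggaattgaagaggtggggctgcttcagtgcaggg
Ccng1: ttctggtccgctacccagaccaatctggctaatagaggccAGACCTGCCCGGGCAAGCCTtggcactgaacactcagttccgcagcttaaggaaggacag
The *Cdkn1a* stretch is chr17:29090888-29090987 on the plus strand, and its site lies at bases -51 to -32 from the annotated start. A second *Cdkn1a* window, around a start further downstream, held no match. The *Ccng1* stretch is chr11:40755422-40755521 on the minus strand, with the site at bases -195 to -176 from the start. The capitals mark the matched pair of half-sites, which has 1 mismatch in each of these genes, and do not mark measured binding. The absence of a match in the other members' windows says only that no such pair lies within those windows.

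The targeted gene was read first as a check of the labels. *Atrx* had 276, 297 and 328 CPM in the WT polyA libraries, 138, 114 and 129 CPM in sg5 and 122, 129 and 141 CPM in sg6. Its log2 fold change was -1.24 (SE 0.10, adjusted p = 5.04e-05) in sg5 and -1.199 (adjusted p = 5.15e-05) in sg6, so both clones kept *Atrx* RNA at a lower level. All 10 mesenchymal markers reached 0.1 CPM in each line, with summed levels of 17193 to 19093 CPM in WT, 18767 to 19600 CPM in sg5 and 23566 to 26241 CPM in sg6. The 8 markers of other cell types summed to 11.03 to 13.4, 8.34 to 8.92 and 7.40 to 8.61 CPM, with *Epcam*, *Ptprc* and *Sox10* below 0.1 CPM in every polyA library. The other 5 also reached 0.1 CPM in each line, so that level does not separate the lists. In WT *Cdh1*, *Cd68* and *Tubb3* had means of 3.86, 4.39 and 3.24 CPM, above the mesenchymal markers *Thy1* (0.997 CPM) and *Nt5e* (0.230 CPM). The remaining mesenchymal markers had WT means of 19.8 CPM (*Eng*) or more. The mesenchymal sum in polyA RNA was highest in sg6, as was mean *Cdkn1a*, and its part in the values below was not tested. Most of this sum was *Col1a1*, *Col1a2* and *Vim* (means of 5719, 6229 and 4899 CPM in WT). *Pdgfra* (318, 209 and 168 CPM in WT, sg5 and sg6) and *Nt5e* were lowest in sg6. With rRNA depletion the sums overlapped between sg5 (6351 to 8660 CPM) and sg6 (6941 to 8705 CPM), above WT (4105 to 5254 CPM).

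*Trp53* itself, on chromosome 11 (69580359-69591873, plus strand, GRCm38), was detected in all 3 lines, and neither clone passed the test. The polyA libraries held 140.8, 119.8 and 119.3 CPM in WT, 115.3, 114.8 and 112.7 CPM in sg5 and 132.4, 125.5 and 126.7 CPM in sg6. Every sg5 library lay below every WT library, while sg6 fell within the WT range. The log2 fold change was -0.15 (SE 0.08, adjusted p = 0.202) in sg5 and 0.02 (SE 0.08, adjusted p = 0.888) in sg6. The intervals of these differences ran from 0.798 to 1.02-fold in sg5 and from 0.894 to 1.15-fold in sg6. In the rRNA-depleted libraries *Trp53* had 31.7, 38.3 and 23.1 CPM in WT, 22.3, 35.7 and 29.3 CPM in sg5, and 32.2, 37.1 and 34.2 CPM in sg6. Those groups overlapped, with log2 fold changes of -0.09 in sg5 (adjusted p = 0.877) and 0.15 in sg6 (adjusted p = 0.854). Of the 31-base words in *Trp53* exons, 10.1% also occur in other genes, 8.79% in the pseudogene *Trp53-ps*, so a small part of its reads could have been split with it.

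*Mdm2*, the inhibitor of p53 and one of its classical targets (chromosome 10, 117688875-117710758, minus strand), differed from WT by less than 1.2-fold in both clones. Its polyA levels were 69.0, 72.0 and 74.0 CPM in WT, 82.2, 76.8 and 74.2 CPM in sg5 and 78.9, 87.3 and 88.3 CPM in sg6. All clone libraries lay above the highest WT library, in sg5 by a narrow margin. *Mdm2* rose in sg6, with a log2 fold change of 0.24 (SE 0.07, adjusted p = 0.0356), and had 0.12 (SE 0.07, adjusted p = 0.284) in sg5. The sg6 call was lost in 10 of 16 other fits, where its adjusted p ran from 0.0514 to 0.113, among them the fits without WT library 1 (0.0688), WT library 2 (0.1), sg5 library 2 (0.0554), sg5 library 3 (0.0543), sg6 library 2 (0.113) or sg6 library 3 (0.101). In the rRNA-depleted libraries the levels were 73.6, 74.0 and 63.5 CPM in WT, 69.8, 64.7 and 60.1 CPM in sg5 and 76.0, 76.0 and 70.9 CPM in sg6, with log2 fold changes of -0.12 in sg5 (adjusted p = 0.737) and 0.08 in sg6 (adjusted p = 0.894).

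*Cdkn1a*, which encodes the CDK inhibitor p21 (chromosome 17, 29090976-29100727, plus strand), was about 2-fold higher in both *Atrx* KO clones and was the 1 gene of the 10 past the stricter threshold. In polyA RNA it stood at 119.4, 124.4 and 102.3 CPM in WT, 241.3, 220.8 and 238.8 CPM in sg5 and 221.2, 288.2 and 321.5 CPM in sg6. The lowest clone library was well above the highest WT library, and the spread was widest in sg6. The fold change was 2.02 (95% interval 1.64 to 2.505, log2 1.02, SE 0.14, adjusted p = 0.000745) in sg5 and 2.40 (1.94 to 2.97, log2 1.26, SE 0.14, adjusted p = 0.000199) in sg6. The sg5 value sits at the fold threshold. Without WT library 3, sg5 library 1 or sg5 library 3 its log2 fold change was under 1, at the lowest 0.94, and it was not shown to exceed 2-fold when tested against that size (glmTreat, adjusted p = 1 in sg5 and 0.167 in sg6). 

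*Cdkn1a* was also higher in the rRNA-depleted libraries. There it had 23.0, 25.8 and 24.1 CPM in WT, 34.3, 39.2 and 33.2 CPM in sg5 and 48.9, 35.0 and 53.1 CPM in sg6. Every clone library again lay above every WT library. The fold change was 1.46 (95% interval 1.13 to 1.89, log2 0.55, SE 0.17, adjusted p = 0.104) in sg5, which missed the p threshold, and 1.88 (1.45 to 2.43, log2 0.91, SE 0.17, adjusted p = 0.00941) in sg6. The sg6 call was lost without WT library 3 (adjusted p = 0.0554) or sg6 library 3 (adjusted p = 0.0635). Its exons overlap those of AC167363.2 on the opposite strand over 273 bases, and since the strand setting of the counting is not given in the sources used here, reads of the overlap cannot be assigned to either.

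**Figure D1:**
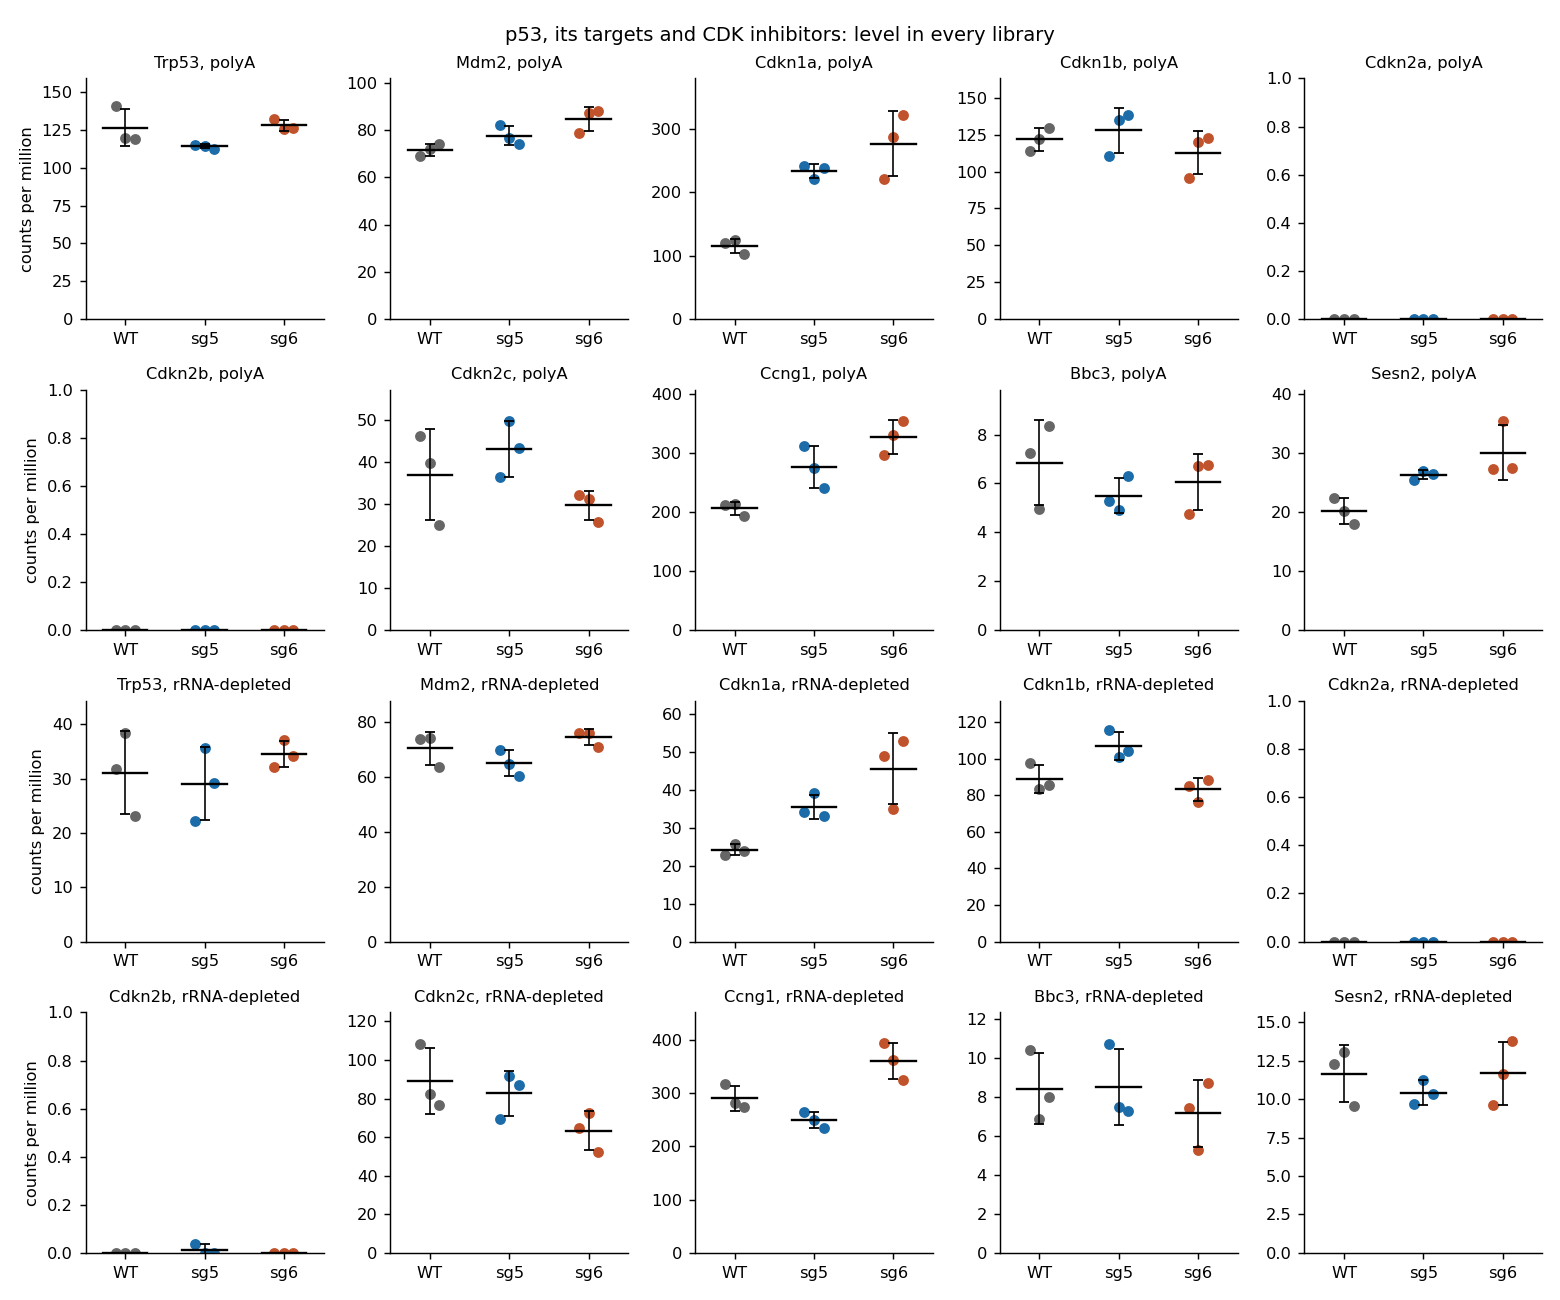
Level of each of the 10 genes in every library, in CPM on linear axes starting at 0, for WT, sg5 and sg6 in polyA (upper 2 rows) and rRNA-depleted (lower 2 rows) libraries. Points are libraries, horizontal lines are means and bars are ± 1 SD (n = 3). *Cdkn1a* was above WT in every clone library of both kinds, and *Cdkn2a* and *Cdkn2b* lay at or next to 0 throughout.

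*Ccng1* encodes cyclin G1, a p53 target that takes part in the p53-MDM2 feedback (chromosome 11, 40748552-40755311, minus strand). It rose in both clones in polyA RNA, from 212.7, 212.8 and 193.7 CPM in WT to 311.6, 274.9 and 241.3 CPM in sg5 and 296.8, 330.4 and 353.3 CPM in sg6. No clone library overlapped the WT range. The fold change was 1.34 (95% interval 1.13 to 1.58, log2 0.42, SE 0.11, adjusted p = 0.0199) in sg5 and 1.58 (1.34 to 1.88, log2 0.66, SE 0.11, adjusted p = 0.00185) in sg6. The sg5 call was lost without WT library 2 (adjusted p = 0.0543), WT library 3 (0.0577), sg5 library 1 (0.0612) or sg5 library 2 (0.0548). The rRNA-depleted libraries gave a different picture, with 317.0, 281.7 and 273.1 CPM in WT, 263.9, 249.8 and 233.9 CPM in sg5 and 394.3, 361.9 and 325.0 CPM in sg6. Here sg5 lay below WT and sg6 above it, each without overlap, at log2 fold changes of -0.22 in sg5 (SE 0.13, adjusted p = 0.437) and 0.31 in sg6 (SE 0.13, adjusted p = 0.339), neither past the threshold.

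*Sesn2* encodes sestrin 2, a stress-induced inhibitor of mTORC1 signalling (chromosome 4, 132492032-132510501, minus strand). In polyA RNA it rose from 22.3, 20.2 and 17.9 CPM in WT to 25.5, 27.0 and 26.4 CPM in sg5 and 27.2, 35.4 and 27.4 CPM in sg6, again without overlap. The log2 fold change was 0.39 (SE 0.12, adjusted p = 0.0451) in sg5 and 0.58 (SE 0.12, adjusted p = 0.00715) in sg6. The sg5 call was lost in 8 of 16 other fits (adjusted p from 0.052 to 0.123), namely with at least 10 counts asked of every library and without WT library 2 or 3, any 1 of the sg5 libraries, or sg6 library 1 or 3. In the rRNA-depleted libraries the 3 lines overlapped, with 12.3, 13.1 and 9.58 CPM in WT, 9.66, 11.3 and 10.4 CPM in sg5 and 9.61, 11.7 and 13.8 CPM in sg6 (log2 fold changes of -0.16 and 0.00, adjusted p = 0.748 and 0.997).

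*Bbc3*, which encodes the pro-apoptotic BH3-only protein PUMA (chromosome 7, 16308393-16318205, plus strand), was low in every line. Its polyA levels were 7.23, 4.95 and 8.36 CPM in WT, 5.28, 4.91 and 6.30 CPM in sg5 and 4.75, 6.72 and 6.75 CPM in sg6. The groups overlapped, and the log2 fold changes of -0.31 in sg5 (SE 0.22, adjusted p = 0.331) and -0.17 in sg6 (SE 0.22, adjusted p = 0.604) did not pass. The 95% intervals reached from 0.573 to 1.13-fold in sg5 and from 0.630 to 1.26-fold in sg6. A rise of the size seen in *Cdkn1a* in polyA RNA lay outside them. *Bbc3* in the rRNA-depleted libraries ranged from 5.29 to 10.7 CPM, and its log2 fold changes of 0.01 and -0.24 did not pass (adjusted p = 0.987 and 0.796). The 95% intervals there reached from 0.697 to 1.46-fold in sg5 and from 0.586 to 1.23-fold in sg6. *Cdkn1a* there was 1.46-fold higher in sg5, at the edge of that interval, and 1.88-fold higher in sg6.

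The CDK inhibitor *Cdkn1b* (p27; chromosome 6, 134920401-134925513, plus strand) was abundant and overlapped between the lines in polyA RNA, at 114.2, 122.0 and 129.8 CPM in WT, 110.3, 134.9 and 138.6 CPM in sg5 and 95.9, 119.8 and 122.9 CPM in sg6. Its log2 fold changes were 0.07 in sg5 (SE 0.12, adjusted p = 0.72) and -0.11 in sg6 (SE 0.12, adjusted p = 0.521). With rRNA depletion sg5, at 115.4, 101.2 and 103.9 CPM, lay above WT at 97.7, 83.3 and 85.8 CPM, with a log2 fold change of 0.27 (SE 0.14, adjusted p = 0.352). The sg6 libraries there had 84.9, 76.1 and 88.6 CPM, overlapping WT.

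*Cdkn2c*, the INK4 gene for p18 (chromosome 4, 109660876-109667189, minus strand), was expressed in all lines and varied widely between WT libraries. It had 46.3, 39.9 and 25.0 CPM in WT, 36.4, 49.7 and 43.4 CPM in sg5 and 32.2, 31.3 and 25.7 CPM in sg6 in polyA RNA. WT library 3 was the lowest of the 9. The log2 fold changes were 0.22 in sg5 (SE 0.21, adjusted p = 0.474) and -0.32 in sg6 (SE 0.21, adjusted p = 0.294), and without WT library 3 the sg6 value passed the p threshold (adjusted p = 0.0306). *Cdkn2c* in the rRNA-depleted libraries stood at 108.4, 82.1 and 76.4 CPM in WT, 69.5, 91.5 and 86.9 CPM in sg5 and 64.9, 72.7 and 52.5 CPM in sg6, with sg6 below WT at a log2 fold change of -0.49 (SE 0.18, adjusted p = 0.234).

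The relatives of these inhibitors were read for comparison. *Cdkn2d*, the INK4 gene for p19, had 24.3, 21.4 and 14.6 CPM in WT polyA libraries, 18.1, 23.3 and 19.9 CPM in sg5 and 18.6, 18.01 and 14.3 CPM in sg6, with log2 fold changes of 0.03 in sg5 (adjusted p = 0.939) and -0.24 in sg6 (adjusted p = 0.371). *Cdkn1c*, the CIP/KIP gene for p57, had at most 2 counts in any polyA library and 1 count over all rRNA-depleted libraries, and was not tested.

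*Cdkn2a* and *Cdkn2b*, which encode p16 with ARF and p15 and lie next to each other on chromosome 4 (89274471-89294653 and 89306299-89311039, both minus strand), were undetected in all 3 lines, WT included. Both had 0 counts in each of the 9 polyA libraries, out of 905096740 counts in all. A count of 0 allows up to 3 counts, which is 0.0131 CPM in the deepest polyA library and 0.105 CPM in the shallowest. In the rRNA-depleted libraries, with 236313982 counts in all, *Cdkn2a* had 0 counts and *Cdkn2b* a single count, in sg5 library 1 (0.0385 CPM), and the limits ran from 0.0835 to 0.167 CPM. These limits cover counting error only. Neither gene shares a 31-base word of its exons with another gene (0 of 1139 and 0 of 1360 words), so no near-identical copy in the annotation could have taken its reads. Both genes stayed below the filter on low counts and were not tested, and no fold change can be given between lines that are all at the floor.

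The genes around the *Cdkn2a* and *Cdkn2b* locus were read in order to see how far the absence of counts reached. Of the 40 genes in the tables within 1 Mb on either side, both included, 15 had 0 counts in all polyA libraries. A mean of at least 0.1 CPM in every line was reached by 11 of the 40. Among all 24100 genes, 20355 had polyA counts above 0. Besides *Cdkn2a* and *Cdkn2b*, the genes at 0 were *Ifna* (interferon alpha) genes, *Gm13290*, which lies among them, and *Mir31*. *Mir31* had up to 167 counts in an rRNA-depleted library. *Wincr1* and *Mtap*, both detected, lie between these genes and *Cdkn2a*, so the genes at 0 did not form an unbroken block. *Mtap*, the methylthioadenosine salvage enzyme next to *Cdkn2a*, was among the detected genes, with 495 ± 22.3 CPM in WT, 257 ± 30.2 CPM in sg5 and 291 ± 74.0 CPM in sg6 (SD, n = 3). It fell in both clones, by log2 fold changes of -0.94 in sg5 (SE 0.17, adjusted p = 0.00382) and -0.76 in sg6 (adjusted p = 0.00873) in polyA RNA and -0.91 (adjusted p = 0.00078) and -0.71 (adjusted p = 0.00538) in the rRNA-depleted libraries. On the other side *Dmrta1* had means of 0.599, 0.476 and 0.458 CPM in WT, sg5 and sg6. The long noncoding RNA gene *Gm12610*, whose span (89295180-89518621) contains *Cdkn2b*, was detected at a low level, 0.559 ± 0.031 CPM in WT, 0.173 ± 0.027 CPM in sg5 and 0.232 ± 0.030 CPM in sg6, and fell in both clones (log2 fold changes of -1.67 in sg5, adjusted p = 0.000581, and -1.26 in sg6, adjusted p = 0.00331), on at most 48 counts in a library. RNA counts do not tell whether the locus is intact in these lines, which was not tested.

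**Figure D2:**
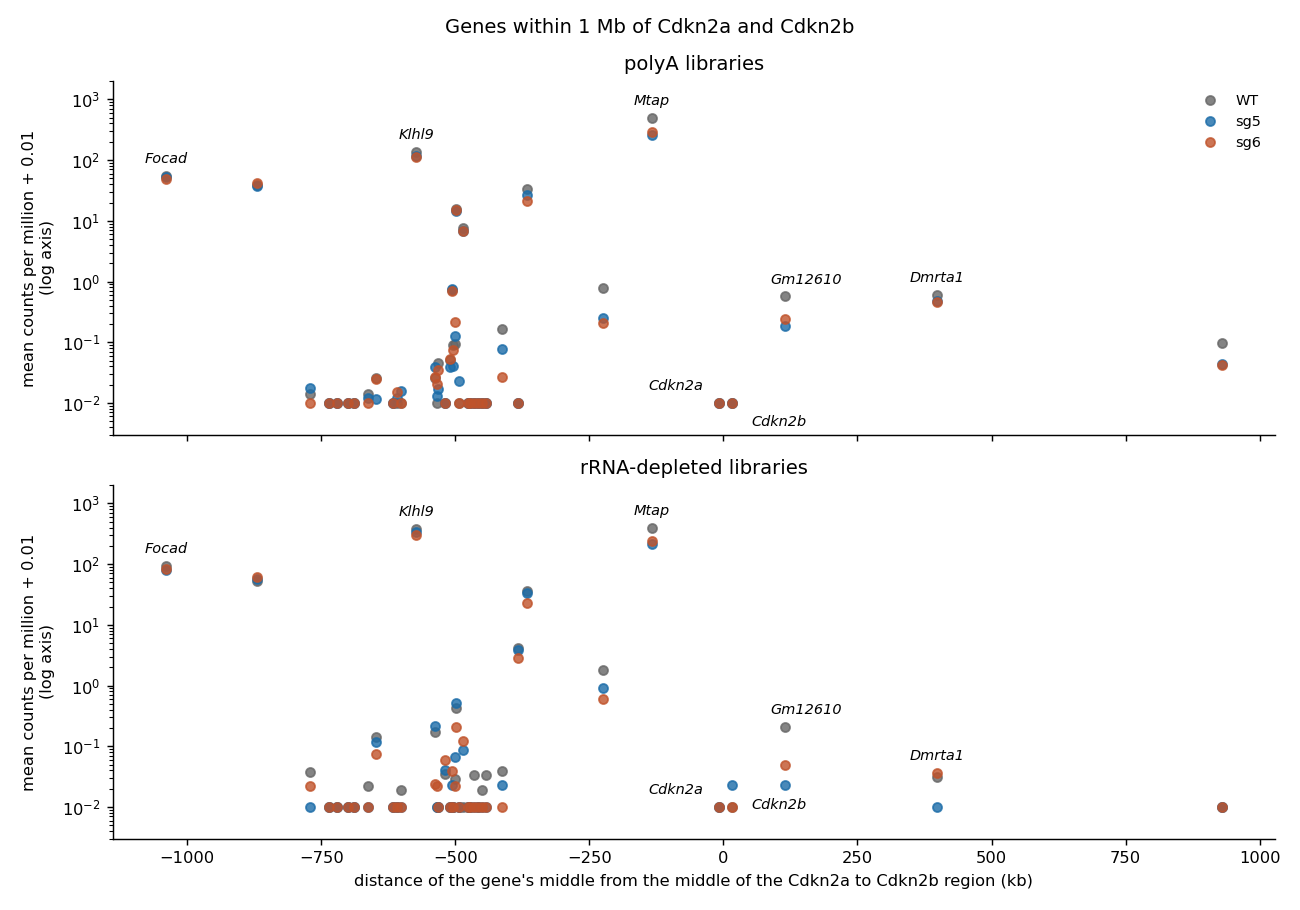
Mean level of the 40 genes within 1 Mb of *Cdkn2a* and *Cdkn2b*, in CPM plus 0.01 on a log axis, against the distance of each gene's middle from the middle of the region in kb, for WT, sg5 and sg6 in both kinds of library (n = 3 each). *Cdkn2a* and *Cdkn2b* sit at the bottom of the polyA panel in all 3 lines, while *Mtap* beside them had means of 257 to 495 CPM there.

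Counted over the members, 8 of the 10 passed the filter on low counts in each kind of library, and these were the 8 detected genes. At the stricter threshold 1 rose in polyA RNA in sg5 and 1 in sg6, *Cdkn1a* each time, against 3.18% and 3.64% of the 15480 genes tested called higher. None was called lower, where 6.96% and 7.54% of all genes were. At the p threshold 3 rose in sg5 (*Cdkn1a*, *Ccng1*, *Sesn2*) and 4 in sg6 (with *Mdm2*), against 13.6% and 16.1% of all genes, and none fell, against 13.4% and 14.6%. The median log2 fold change of the 8 was 0.17 in sg5 and 0.13 in sg6, beside medians of all genes within 0.01 of 0. With rRNA depletion none passed the stricter threshold by edgeR or by DESeq2, where 3.04% and 2.16% of 13303 genes were called higher and 4.31% and 3.59% lower. At the p threshold none rose in sg5 and 1 rose in sg6 (*Cdkn1a*), with 5.64% and 3.56% of all genes called higher and 5.1% and 4.03% lower. DESeq2 gave the same 0 and 1, and at an unadjusted p below 0.05 edgeR had 1 gene in sg5 (*Cdkn1a*) and 3 in sg6 (*Cdkn1a*, *Ccng1* and, lower, *Cdkn2c*). The medians there were -0.10 and 0.04, beside 0.08 and 0.04 for all genes.

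Between the clones no member passed either threshold. At the stricter threshold 1.36% of genes were called higher in sg5 than in sg6 and 1.25% lower in polyA RNA, and 0.556% and 0.925% with rRNA depletion. At the p threshold these shares were 2.11% and 2.67%, and 0.579% and 0.992%. DESeq2 also called none, and 2 members had an unadjusted p below 0.05 in each kind of library, *Ccng1* and *Cdkn2c* in polyA and *Ccng1* and *Cdkn1b* with rRNA depletion. *Ccng1* in the rRNA-depleted libraries had the lowest of these p-values, at a log2 difference of -0.53 between sg5 and sg6 (SE 0.13, adjusted p = 0.154). With the replicate number as a block that difference passed the p threshold (adjusted p = 0.032), so 1 member was then called, and it also passed when genes were fitted without transposable element loci (adjusted p = 0.0236).

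**Figure D3:**
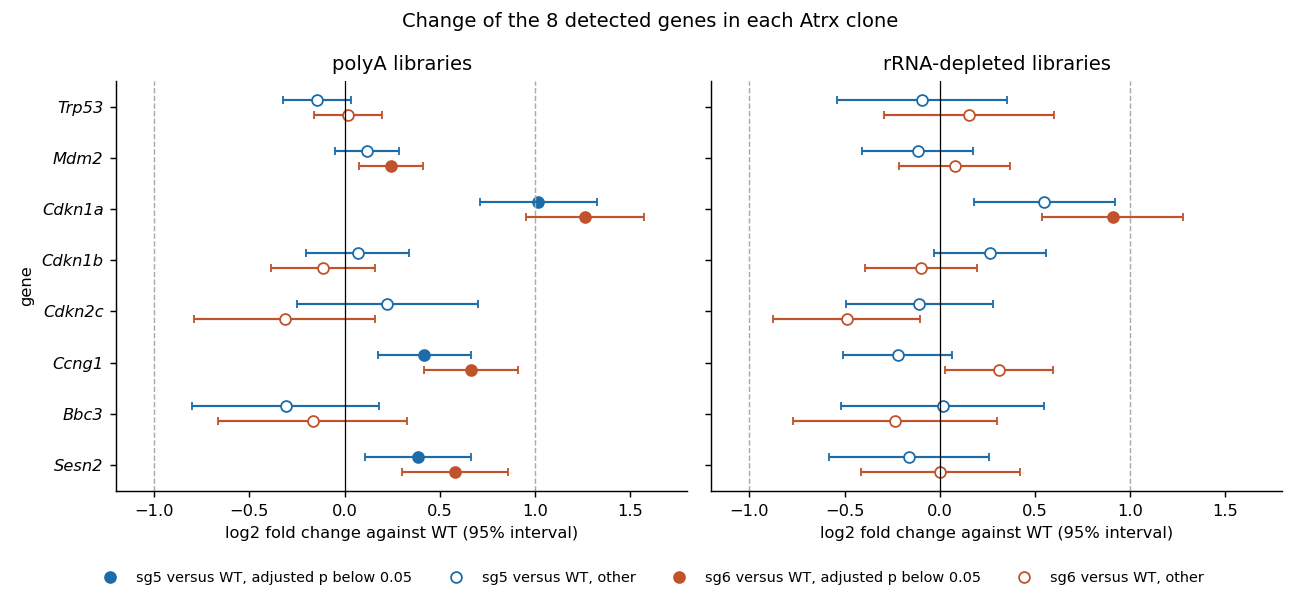
Log2 fold change of the 8 tested genes in each clone against WT, with 95% intervals, for polyA libraries on the left and rRNA-depleted libraries on the right. Filled points have an adjusted p below 0.05, and dashed lines mark a log2 fold change of 1 in either direction. *Cdkn1a* stands at 1.02 and 1.26 in polyA RNA and at 0.55 and 0.91 with rRNA depletion.

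The changes were in places smaller with rRNA depletion, and that difference was tested in a joint fit of all 18 libraries, chosen after the data had been seen. The change in sg5 was larger in polyA than in rRNA-depleted RNA by 0.65 on the log2 scale for *Ccng1* (SE 0.14, 95% interval 0.36 to 0.94, adjusted p = 0.0505), by 0.55 for *Sesn2* (adjusted p = 0.446) and by 0.49 for *Cdkn1a* (95% interval 0.03 to 0.94, adjusted p = 0.497). In sg6 the differences were 0.33 for *Ccng1*, 0.54 for *Sesn2* and 0.33 for *Cdkn1a*, each with an adjusted p of 1. No member passed, against 0.48% and 0.178% of 12922 genes. At an unadjusted p below 0.05 there were 4 in sg5 (*Mdm2*, *Cdkn1a*, *Ccng1*, *Sesn2*) and 2 in sg6 (*Ccng1*, *Sesn2*). The library kinds were made at different sites and counted by different methods, which cannot be told apart from the selection of the RNA.

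Levels of different genes were compared per kb of merged exon length. In WT polyA libraries the order was *Ccng1* (58.8 ± 3.14 CPM per kb), *Cdkn1a* (32.5 ± 3.25), *Trp53* (31.3 ± 3.04), *Cdkn1b* (26.8 ± 1.71), *Mdm2* (14.1 ± 0.495), *Cdkn2c* (13.8 ± 4.06), *Sesn2* (5.80 ± 0.631) and *Bbc3* (3.22 ± 0.817), all as SD with n = 3. *Cdkn1a* and *Trp53* did not differ beyond their spread, nor did *Mdm2* and *Cdkn2c*. In both clones *Cdkn1a* came to exceed *Trp53*, at 65.7 ± 3.15 against 28.3 ± 0.338 CPM per kb in sg5 and 78.0 ± 14.4 against 31.7 ± 0.916 in sg6. The order of WT levels was different in the rRNA-depleted libraries, where *Ccng1* (82.7 ± 6.62 CPM per kb) was followed by *Cdkn2c* (33.1 ± 6.36), *Cdkn1b* (19.5 ± 1.69) and *Mdm2* (13.8 ± 1.17). *Trp53* (7.67 ± 1.89) and *Cdkn1a* (6.84 ± 0.406) overlapped there, as did *Bbc3* (3.97 ± 0.857) and *Sesn2* (3.35 ± 0.530). Merged exon length is not the effective length used in the authors' counting, so these levels compare genes only roughly.

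A list of 35 further p53 target genes was counted alongside. In polyA RNA all 35 were tested, and at the p threshold 10 rose and 1 fell in sg5, and 14 rose and 3 fell in sg6. As shares of the list these can be read against the 13.6% and 16.1% of all genes called higher in sg5 and sg6. Of all genes 13.4% and 14.6% were called lower. The medians were 0.13 in sg5 and 0.24 in sg6, with 24 and 28 of the 35 above 0, beside medians of all genes within 0.01 of 0. The 10 that rose in sg5 (*Abhd4*, *Aen*, *Bax*, *Dram1*, *Ei24*, *Ephx1*, *Fas*, *Gdf15*, *Perp* and *Zmat3*) also rose in sg6, in a comparison with the same WT libraries, and *Btg2*, *Phlda3*, *Pmaip1* and *Polk* were added there. The genes that fell were *Ppm1d*, the WIP1 phosphatase that dampens p53 signalling, in both clones, with *Pml* and *Sesn1* in sg6. The number that rose in sg5 was 5 without WT library 2 and otherwise 7 to 14 over the fits that tested for any change, and in sg6 it ran from 10 to 19. The call of *Ppm1d* in sg5 was lost without WT library 2, sg5 library 2 or sg5 library 3, and the number that fell in sg6 was 1 without WT library 3, sg6 library 1 or sg6 library 2. With the replicate block 14 rose and 4 fell in sg5, and 19 rose and 6 fell in sg6. DESeq2 called 12 higher and 3 lower, and 15 and 4.

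Examples with different roles follow, chosen after their values were seen. *Zmat3*, an RNA-binding protein gene induced by p53, had log2 fold changes of 0.71 (SE 0.13, adjusted p = 0.00338) in sg5 and 0.75 (SE 0.13, adjusted p = 0.00212) in sg6. *Fas*, the death receptor gene, went from a mean of 10.4 CPM in WT to 19.4 and 16.9 CPM. *Bax*, a pro-apoptotic effector of mitochondrial membranes, had 0.39 (adjusted p = 0.0401) and 0.58 (adjusted p = 0.00637). *Ppm1d* fell, by log2 fold changes of -0.35 in sg5 (adjusted p = 0.0322) and -0.42 in sg6 (adjusted p = 0.014). None of these 4 genes passed with rRNA depletion, where the log2 fold changes in sg5 and sg6 were 0.08 and 0.39 for *Zmat3*, 0.75 and 0.34 for *Fas*, 0.28 and 0.38 for *Bax* and -0.47 and -0.39 for *Ppm1d*.

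At the stricter threshold the list had 2 genes higher in sg5 and 3 in sg6, out of 35, against 3.18% and 3.64% of all genes, and *Gdf15* and *Perp* passed in both clones. *Gdf15*, which encodes a secreted stress cytokine, had 2, 4 and 3 counts in the WT polyA libraries (0.070, 0.046 and 0.067 CPM). It had 0.600, 0.672 and 0.487 CPM in sg5 and 0.607, 1.08 and 0.870 CPM in sg6. All clone libraries were above WT, at log2 fold changes of 3.34 in sg5 (SE 0.37, adjusted p = 0.000244) and 3.88 in sg6 (SE 0.37, adjusted p = 9.28e-05). With rRNA depletion the WT libraries had 0.131, 0.147 and 0.139 CPM, sg5 0.847, 1.06 and 2.05 CPM and sg6 3.14, 3.99 and 2.54 CPM (log2 fold changes of 3.20 in sg5, adjusted p = 0.000977, and 4.48 in sg6, adjusted p = 6.27e-05). *Perp*, which encodes a desmosomal membrane protein, had 0.419, 0.286 and 0.089 CPM in WT, 0.537, 1.15 and 1.09 CPM in sg5 and 33.9, 47.8 and 54.4 CPM in sg6. Its log2 fold change was 1.87 (SE 0.46, adjusted p = 0.0159) in sg5 and 7.47 (SE 0.46, adjusted p = 8.46e-06) in sg6, and the sg5 call was lost without WT library 2 (log2 fold change 2.04, adjusted p = 0.0618). The clones differed in *Perp* by -5.60 on the log2 scale (adjusted p = 4.56e-05). Without WT library 1 the list had 5 genes past the stricter threshold in sg6. The third gene in sg6 was *Pmaip1*, at means of 0.124 CPM in WT and 0.341 CPM in sg6.

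With rRNA depletion 34 of the list were tested, and fewer changed. In sg5, 1 rose (*Gdf15*) and 3 fell, *Eda2r* (log2 fold change -0.99), *Ephx1* (-0.57) and *Plk2* (-0.67). In sg6, 2 rose (*Gdf15* and *Perp*) and none fell, with 2 below 0 at an unadjusted p below 0.05 and none by DESeq2. The background shares were 5.64% higher and 5.1% lower in sg5 and 3.56% and 4.03% in sg6. The medians of 0.02 and 0.15 stood beside 0.08 and 0.04 for all genes. The number that rose in sg5 was 4 without sg5 library 1 and 2 without sg5 library 3, sg6 library 1 or sg6 library 2. It was 6 with the replicate block, 4 with DESeq2, 4 without a filter and 4 when genes were fitted alone, and 0 with at least 10 counts in every library. The number that fell in sg5 was 4 with the block, 2 with DESeq2, 5 with genes alone and 1 without a filter. Leaving out any 1 library it was 1 or 2. It was 1 without WT library 1, WT library 2, sg5 library 2, sg5 library 3 or sg6 library 3. *Ephx1*, a detoxifying epoxide hydrolase gene, thus rose in sg5 in polyA RNA (0.46, adjusted p = 0.0243) and fell there with rRNA depletion (adjusted p = 0.037). Whether *Ephx1* was among the calls lost in those fits was not read. Among the 37 promoter windows of 27 of these genes, 4 windows, of 4 genes, held a p53 site with a spacer of up to 13 bases, against 1.09% of all windows. Without a spacer 1 gene held a site, where 0.0883% of all windows did.

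**Figure D4:**
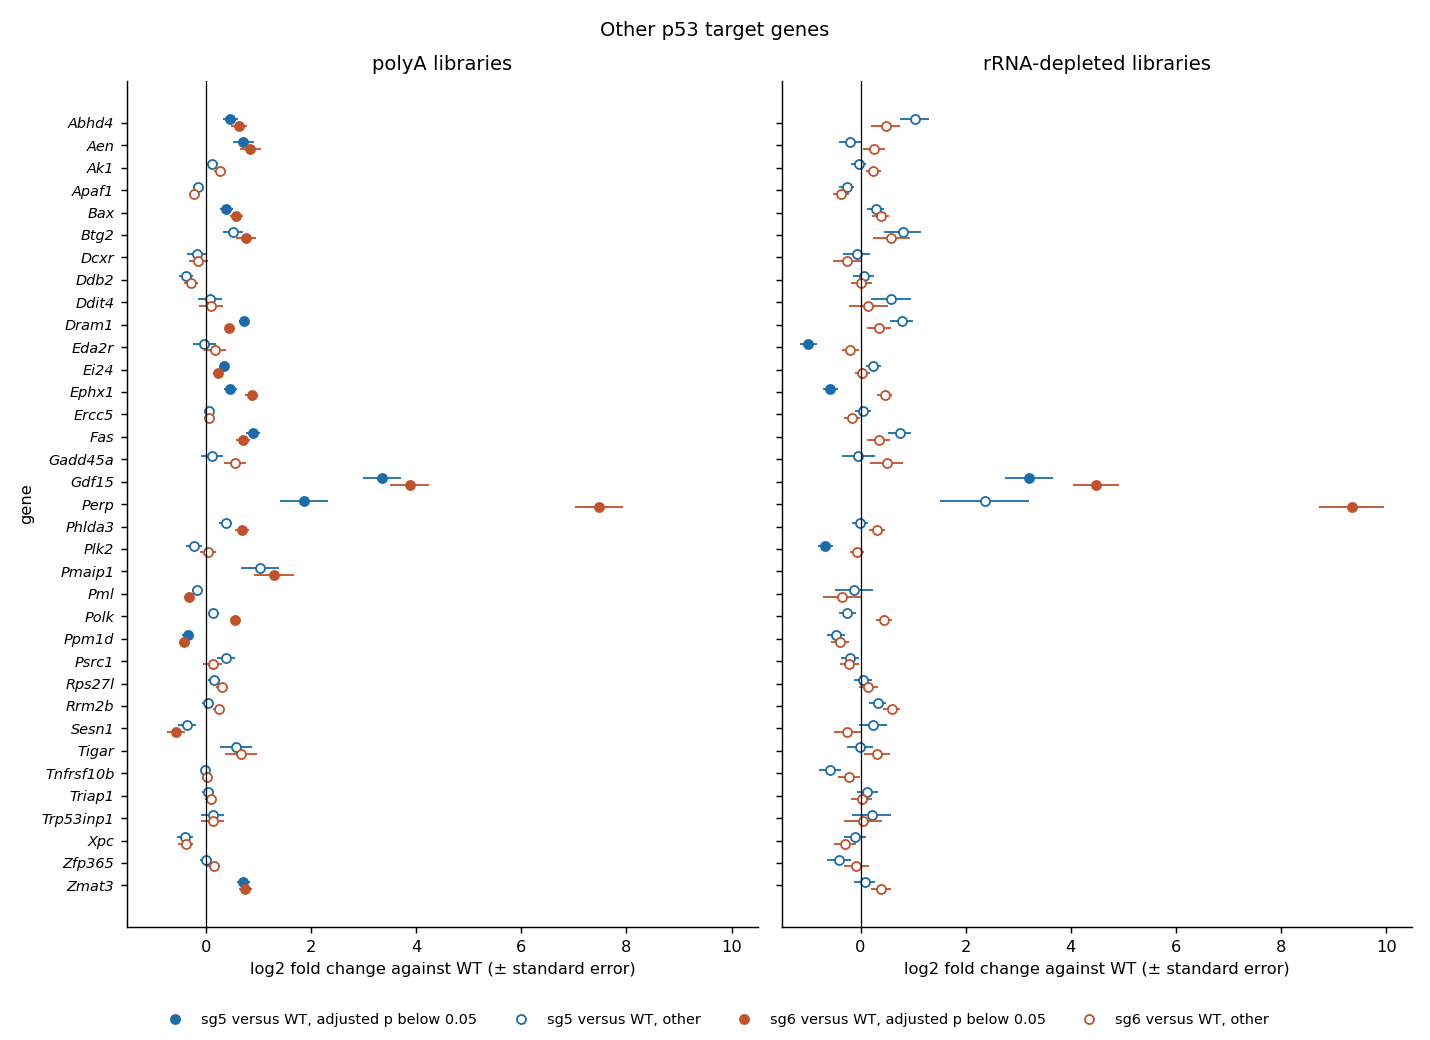
Log2 fold change (± SE) of the 35 listed p53 target genes in each clone against WT, for polyA libraries on the left and rRNA-depleted libraries on the right. Filled points have an adjusted p below 0.05. Most polyA points lie slightly above 0 (24 of 35 in sg5 and 28 of 35 in sg6), and *Gdf15* and *Perp* stand apart.

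Among 22 p53 relatives, regulators and cofactors, 21 were tested. In polyA RNA 2 rose (*Cop1* and *Usp10*) and 1 fell (*Trp63*) in sg5, and 2 rose (*Cop1* and *Hipk2*) and 2 fell (*Trp63* and *Chek2*) in sg6, with medians of 0.01 and -0.03. The shares of all genes were 13.6% higher and 13.4% lower in sg5 and 16.1% and 14.6% in sg6. With rRNA depletion none rose in either clone, by edgeR or DESeq2 (1 in each clone at an unadjusted p below 0.05), while 2 fell in sg5 (*Trp63* and *Atr*) and 1 in sg6 (*Trp63*), beside 5.1% and 4.03% of all genes called lower. With the replicate block 2 rose and 2 fell in sg5 and 3 rose and 3 fell in sg6 in polyA RNA, and 2 fell in sg6 with rRNA depletion. The counts also moved with single libraries. Leaving out each of the 9 libraries in turn, the genes that rose in polyA RNA numbered 0 to 2 in sg5 (0 without WT library 2 or sg5 library 2) and 0 to 3 in sg6 (0 without WT library 2 or sg6 library 2), and in the rRNA-depleted libraries of sg5 the call of *Atr* was lost each time. *Mdm4*, which encodes the other inhibitor of p53, stood at 185.7, 223.7 and 252.2 CPM in WT polyA libraries, 216.5, 236.4 and 247.0 CPM in sg5 and 213.9, 244.3 and 250.9 CPM in sg6, with log2 fold changes of 0.08 in sg5 (adjusted p = 0.66) and 0.10 in sg6 (adjusted p = 0.568).

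*Trp63*, which encodes the p53 relative p63, was the 1 member of that list past the stricter threshold in both clones. At that threshold 6.96% of all genes in sg5 and 7.54% in sg6 were called lower in polyA RNA. *Trp63* had 2.86, 5.37 and 3.98 CPM in WT polyA libraries, 0.391, 0.654 and 0.925 CPM in sg5 and 0.252, 0.321 and 0.320 CPM in sg6. No clone library reached the WT range. Its log2 fold changes against WT were -2.64 (SE 0.33, adjusted p = 0.000524) in sg5 and -3.79 (SE 0.38, adjusted p = 0.000125) in sg6, and both calls held in each of the 9 fits that left out a library. Between sg5 and sg6 the log2 difference of 1.14 (SE 0.37) did not pass (adjusted p = 0.137), but it passed the stricter threshold with the replicate block (1.09, adjusted p = 0.0413) and with DESeq2 (1.15, adjusted p = 0.039). The rRNA-depleted libraries had 1.93, 2.40 and 3.54 CPM in WT, 0.154, 0.279 and 0.0773 CPM in sg5 and 0.129, 0.298 and 0.351 CPM in sg6, with log2 fold changes of -3.99 in sg5 (adjusted p = 0.000291) and -3.32 in sg6 (adjusted p = 0.000724). The epithelial cadherin gene *Cdh1* also fell in both clones, from 4.82, 4.26 and 2.51 CPM in WT polyA libraries to 0.827, 1.31 and 1.57 CPM in sg5 and 0.266, 0.562 and 0.408 CPM in sg6, and its part in the *Trp63* values was not tested. *Trp73*, for the relative p73, had at most 1 count in any polyA library and 0 in the rRNA-depleted libraries.

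Of 18 genes of the CDK and retinoblastoma axis that these inhibitors act on, 17 were tested. In polyA RNA 3 rose in sg5, namely the D-type cyclin genes *Ccnd1* (log2 fold change 0.85, adjusted p = 0.0429) and *Ccnd2* (0.77, adjusted p = 0.00256) and the retinoblastoma gene *Rb1* (0.60, adjusted p = 0.00511). In sg6, *Ccnd2* (0.78), *Rb1* (0.76) and *Rbl2* (0.31) rose, and *Skp2*, which encodes a ubiquitin ligase subunit that marks p27 for degradation, fell (-0.73, adjusted p = 0.0161). The medians were 0.10 and -0.08. The shares of all genes called higher were 13.6% in sg5 and 16.1% in sg6, and 14.6% were called lower in sg6. With the replicate block 6 rose in sg5, and 4 rose and 2 fell in sg6. DESeq2 called 5 higher in sg5, and 4 higher and 2 lower in sg6. Leaving out 1 library, the number that rose was 2 in sg5 without WT library 2, WT library 3, any 1 of the sg5 libraries or sg6 library 2, and 2 in sg6 without WT library 2, WT library 3 or sg6 library 2, and *Skp2* lost its call without WT library 2 or sg6 library 3, while 3 genes fell in sg6 without WT library 3. With rRNA depletion none passed by edgeR or DESeq2 (with the block 1 fell in each clone), 3 in sg5 and 2 in sg6 had an unadjusted p below 0.05, and the medians were -0.07 and -0.14.

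Of 16 cell-cycle genes that p53 and p21 are known to repress indirectly, all were tested. In polyA RNA none passed in either clone by edgeR, with 0 in sg5 and 1 in sg6 at an unadjusted p below 0.05, and DESeq2 called 0 and 1 (lower). The replicate block also gave 1 lower in sg6. Of all genes 13.6% were called higher and 13.4% lower in sg5, and 16.1% and 14.6% in sg6. Without WT library 3, 2 fell in sg6. The medians were 0.07 in sg5 and -0.28 in sg6, with 11 of the 16 above 0 in sg5 and 14 below 0 in sg6. The SE of single genes ran from 0.24 to 0.42, so the lack of calls does not show that levels were unchanged. With rRNA depletion 1 fell in sg5, *Top2a*, the replicative topoisomerase gene (log2 fold change -1.07, SE 0.25, adjusted p = 0.031), where 5.1% of all genes were called lower. This call was lost without WT library 1, 2 or 3, sg5 library 1 or sg5 library 3, while 3 of the list fell with the replicate block and 2 without a filter. None passed in sg6 by edgeR or DESeq2, with 1 at an unadjusted p below 0.05. The medians there were -0.39 and -0.20, with 15 and 13 of the 16 below 0. The medians of sg5 thus lay on opposite sides of 0 in the 2 kinds of library.

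The genes whose levels were most like *Trp53* over the 9 polyA libraries, among 11520 genes compared by Pearson's r of log2 (CPM + 1), were *Spsb2* (r = 0.956), *Atox1* (0.951) and *Smdt1* (0.943). Over the 9 rRNA-depleted libraries the same pairs had r of -0.234, 0.188 and 0.227, so the likeness was not seen there. For *Cdkn1a* they were *Ikbkb* (0.984), *Irak3* (0.983) and *Polb* (0.978), with r of 0.730, 0.829 and 0.623 over the rRNA-depleted libraries. The libraries share lines, depth and preparation, and 534 genes had an r above 0.9 with *Cdkn1a*, against 23 with *Trp53*.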

How the data were processed

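RNA was measured in 9 polyA and 9 rRNA-depleted libraries. For polyA libraries the authors deposited estimated counts per gene (Salmon 0.8.2 per the submitters' notes, mm10), which were rounded to whole numbers. For rRNA-depleted libraries they deposited read counts per gene and transposable element locus (STAR 2.27.10a, then TElocal), where reads with several alignments are shared out. The strand setting is not given in the sources used here. Of 24100 Entrez identifiers, 24045 had a RefSeq symbol.

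Per library kind, edgeR 4.0.16 in R 4.3.3 was run with filterByExpr (minimum count 10), TMM scaling and the quasi-likelihood test in 1 fit of 3 groups, with Benjamini-Hochberg adjustment over all 15480 genes (polyA) or 56086 genes and loci (rRNA-depleted, of which 13303 genes). Scripts were tested on simulated data with 200 changed genes. Alternatives were DESeq2 1.42.0, other scalings, filters and thresholds, thinned counts, a replicate block and leaving out each library. Replicate numbers come from the labels. Deviations from the group means correlated above 0.1 in every same-numbered pair of WT with sg6 (0.177 to 0.645 in polyA, 0.173 to 0.628 with rRNA depletion) and of sg5 with sg6 (0.419 to 0.553 and 0.21 to 0.719), so those comparisons were taken as paired, and blocked values are given where they change a call. Pairs of WT with sg5 ranged from 0.035 to 0.408 and from -0.284 to 0.512 and were not taken as paired. The tests without the block follow the study's methods.

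All members, *Mdm4*, *Trp63*, *Trp73*, *Cdkn1c* and *Cdkn2d* were named, as were listed genes past the stricter threshold in both polyA comparisons. The members and lists were chosen with earlier results of these data known. Library totals limit precision as given with the values. Replicates of a group differed by more than sampling noise. Coordinates are from GENCODE vM21 on GRCm38.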

Additional observations from a re-analysis of the deposited data

Results flagged for a closer look

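The clones were compared as sg5 minus sg6 on the log2 scale with edgeR's quasi-likelihood test. Without the replicate block they differed in 4 listed genes and in no member. Besides the 10 members the lists held 35, 22, 18, 16, 10 and 8 genes. Of all genes 2.11% were higher and 2.67% lower in sg5 at the p threshold in polyA RNA. These shares were 0.579% and 0.992% with rRNA depletion. With rRNA depletion the member *Ccng1* passed the p threshold with the block (-0.53, adjusted p = 0.032) and with genes fitted alone (-0.56, adjusted p = 0.0236). Of the p53 targets 2 were lower in sg5 there, against 5 with the block, 4 with DESeq2 and 5 with genes alone. In polyA RNA 1 target was lower, against 2 with the block and 3 with DESeq2, which also called 1 higher. *Trp63* also differed in polyA RNA with the replicate block (1.09, adjusted p = 0.0413) and with DESeq2 (1.15, adjusted p = 0.039). *Perp* differed by -5.60 in polyA RNA (SE 0.38, adjusted p = 4.56e-05) and by -6.98 with rRNA depletion (SE 0.52, adjusted p = 1.18e-05), where WT had 0, 0.0737 and 0.111 CPM, sg5 0.0385, 0.501 and 0.618 CPM and sg6 31.6, 48.4 and 64.7 CPM. *Thy1*, a mesenchymal surface marker, differed by -8.76 in polyA RNA (adjusted p = 3.29e-08), at 0.803, 1.098 and 1.09 CPM in WT, 0.246, 0.305 and 0.370 CPM in sg5 and 154, 128 and 119 CPM in sg6. *Thy1* differed by -8.25 with rRNA depletion (adjusted p = 3.76e-07), at 34.1, 25.5 and 24.7 CPM in sg6. *Cdh1*, an epithelial marker, differed by 1.59 in polyA RNA (adjusted p = 0.0414), at 4.82, 4.26 and 2.51 CPM in WT, 0.827, 1.31 and 1.57 CPM in sg5 and 0.266, 0.562 and 0.408 CPM in sg6. *Ephx1* differed by -1.03 with rRNA depletion (SE 0.14, adjusted p = 0.00357), at 145, 113 and 126 CPM in sg5 and 292, 248 and 245 CPM in sg6.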

How the results depend on the processing

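Of 1426 other values of single genes, 1371 kept their direction and side of the stricter threshold, 12 lost and 12 gained a call and 31 changed sign. Some gained calls came from using adjusted p alone, which changes the rule and not the value. At the p threshold the polyA calls were lost in 4 of 16 fits for *Ccng1* in sg5, 8 for *Sesn2* in sg5 and 10 for *Mdm2* in sg6. The rRNA-depleted call of *Cdkn1a* in sg6 was lost in 2 of 17. Calls were gained for *Cdkn2c* in polyA sg6 in 1 fit and for *Ccng1* between the clones with rRNA depletion in 2. The values that changed sign were at most 0.187 in size as reported, with an adjusted p of at least 0.497. The number of members past the stricter threshold in polyA sg5, 1 as reported, was 0 with at least 10 counts in every library and under glmTreat, 3 by adjusted p alone, and 0 to 1 leaving out a library (0 without WT library 3, sg5 library 1 or sg5 library 3). In polyA sg6 it was 1, 0 under glmTreat and 4 by adjusted p alone. In rRNA-depleted sg6 it was 0, 1 by adjusted p alone and 0 to 1 leaving out a library (1 without sg6 library 2). The causes were not tested.

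Signs changed in polyA for *Cdkn2d* in sg5 (-0.0314, thinned counts) and *Trp53* in sg6 (-0.0047 with at least 10 counts in every library, -0.0021 with only the 2 groups compared). With rRNA depletion, under at least 10 counts in every library and with genes alone, signs changed for *Mdm4* in sg5 (-0.0556 and -0.0502) and sg6 (-0.0185 and -0.0121), *Bbc3* in sg5 (-0.0544 and -0.0453) and *Sesn2* in sg6 (-0.0404 and -0.0273). Leaving out 1 library, polyA values ran from -0.0247 to 0.1883 for *Mdm4* and -0.1597 to 0.1841 for *Cdkn2d* in sg5, and in sg6 from -0.0063 to 0.2071 for *Mdm4*, -0.0297 to 0.1039 for *Trp53* and -0.3729 to 0.0073 for *Bbc3*. With rRNA depletion they ran in sg5 from -0.3396 to 0.0923 for *Cdkn2d*, -0.2846 to 0.0962 for *Trp53*, -0.2194 to 0.11 for *Cdkn2c* and -0.1603 to 0.2514 for *Bbc3*, and in sg6 from -0.0301 to 0.3486 for *Trp53*, -0.1304 to 0.0252 for *Cdkn1b* and -0.13 to 0.1464 for *Sesn2*.

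The replicate numbers paired sg6 with WT and with sg5 but not sg5 with WT, by the correlation of same-numbered libraries. With the replicate block the members past the stricter threshold stayed at 1 in sg5 and 1 in sg6 for polyA and 0 and 0 for rRNA depletion, and over all genes the count in rRNA-depleted sg5 versus sg6 went from 74 higher and 123 lower to 136 and 156. Among the members, their relatives, *Atrx*, *Gdf15* and *Perp* the block changed the call of *Trp63* in polyA sg5 versus sg6 and, at the p threshold, of *Ccng1* in rRNA-depleted sg5 versus sg6, and of *Perp* in rRNA-depleted sg5 versus WT (2.41, adjusted p = 0.0393). Not every sample correlated best with its own number. The all-gene counts of rRNA-depleted sg5 versus WT moved from 405 higher and 573 lower to 567 and 585 with DESeq2 and 624 and 601 without a filter, and those of sg5 versus sg6 to 126 and 160 with DESeq2 and 195 and 183 without a filter. The median of all genes in rRNA-depleted sg5 was 0.0798, and 0.126 with median-of-ratios scaling. Depth limits *Cdkn2a*, *Cdkn2b*, *Trp73* and *Cdkn1c*, which could not be tested.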

Other observations

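In the region around *Cdkn2a* and *Cdkn2b* other long noncoding RNA genes were also lower in the clones in polyA RNA, named here after their values were seen. *Wincr1* had 0.760 ± 0.024 CPM in WT, 0.240 ± 0.039 CPM in sg5 and 0.199 ± 0.065 CPM in sg6 in polyA RNA (SD, n = 3), at log2 fold changes of -1.65 (edgeR, adjusted p = 0.00113) and -1.92 (adjusted p = 0.000795). *Gm49890* had 33.6 ± 4.63, 26.2 ± 3.80 and 20.8 ± 4.67 CPM and fell in sg6 (-0.70, adjusted p = 0.0177), with -0.36 (adjusted p = 0.165) in sg5. The protein-coding gene *Klhl9* fell by a smaller amount in both clones (-0.25, adjusted p = 0.021, and -0.27, adjusted p = 0.0138). With rRNA depletion none of these genes passed. The values in sg5 and sg6 there were -1.02 and -1.60 for *Wincr1* (adjusted p = 0.23 and 0.0737) and -0.13 and -0.63 for *Gm49890* (0.843 and 0.224). For *Klhl9* they were -0.20 and -0.35 (0.517 and 0.282).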
